A study of Mus musculus with 18 samples.

Results

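The neuronal and the astrocyte fractions of wild-type (WT) mouse brain were compared with each other, using 6 of the 18 RNA libraries of the series, 3 for each fraction. The mice were 10 months old, carried no mutation and had a C57BL/6 background. They were the WT littermates of homozygous *Atxn2*-CAG100-KIN mice, in which a CAG repeat expansion was knocked into the *Atxn2* gene. All fractions were obtained from dissociated whole brain by magnetic sorting (MACS). Microglia were removed first by CD11b. Astrocytes were then captured by antibodies to the surface antigen ACSA-2, and neurons were what remained unlabelled after a cocktail of antibodies to non-neuronal cells and CD31 beads had been applied. The astrocyte fraction is thus a positive selection and the neuronal fraction a negative one, so any cell that carried none of the depleted antigens could stay in it. The libraries came from all RNA and not only from polyadenylated RNA, since a poly(A) tail was added enzymatically after depletion of ribosomal RNA. Counts per transcript were summed by gene symbol, and the 10855 genes that reached 5 reads in 2 or more of the 6 libraries were tested.

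Neurons of the adult brain carry excitable membranes, long processes and synapses, and their transcripts for vesicle release and receptors are commonly taken as markers of the mature cell. Newborn neurons, which the adult mouse brain still produces along the ventricle and in the hippocampus, instead express doublecortin, SoxC factors and, for interneurons of the olfactory bulb, Dlx factors. Astrocytes clear glutamate and potassium from the synaptic cleft, convert glutamate to glutamine, store glycogen and supply lipids through apolipoproteins.

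Library totals were 761481 to 1017972 reads in the neuronal fraction and 2118317 to 2300100 reads in the astrocyte fraction. The 10 most abundant transcripts held 79.8% to 85.2% of the reads of the neuronal and 76.0% to 77.6% of those of the astrocyte libraries. The foremost was a transcript of *Zfp101*, with 42.4% to 49.8% of neuronal reads against 20.5% to 30.6% of astrocyte reads. Outside these 10 transcripts only 112498 to 206118 reads per library were left in the neuronal fraction, and 478834 to 550147 in the astrocyte fraction. Levels are given here as CPM, the read count scaled to the library size after TMM adjustment, and 1 read corresponds to 1.20 to 1.69 CPM in neuronal but 0.340 to 0.380 CPM in astrocyte libraries. Transcripts annotated as protein coding took 71.1% to 71.8% of neuronal and 51.2% to 57.0% of astrocyte reads. Neuronal replicate 2 stood apart at 32 genes, where it had at least 20 reads and was at least 4-fold above both other neuronal libraries. The same criterion gave 1 gene and none for the other neuronal libraries and at most 2 for an astrocyte library. Results that rest on that library are given with and without it.

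A gene was called when the Benjamini-Hochberg adjusted p of edgeR's quasi-likelihood test was at most 0.05 and the log2 fold change at least 1 in size. Fold changes are neurons minus astrocytes throughout, so that positive values are higher in neurons. Of the 10855 genes, 763 (7.03%) were higher in the neuronal and 1336 (12.3%) in the astrocyte fraction. The median log2 fold change of all genes tested was -0.31. The 3 neuronal libraries all lay above the 3 astrocyte libraries for 1262 genes (11.6%) and all below them for 2760 (25.4%). In 266 of the genes called higher in astrocytes no read was found in any neuronal library, while 6 genes called higher in neurons had none in the astrocyte libraries. With all libraries thinned to the same depth 4309 genes remained, of which 518 were higher in neurons and 646 in astrocytes. Members of a list that reached the read filter through 1 fraction alone were selected in its favour, so the counts and medians of the lists below are descriptions. As the astrocyte libraries were deeper, passing through them alone did not fix the direction. *Acta2*, for example, had 4, 4 and 0 against 2, 5 and 7 reads and a value of 1.07 ± 0.80. In these bulk samples fewer cells of a type and less RNA per cell cannot be told apart.

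The marker genes separated the fractions. *Tubb3*, the neuronal β-tubulin on chromosome 8 (mm39, 124138163 to 124150092), had 71, 70 and 48 reads in the neuronal and 22, 17 and 32 in the astrocyte libraries. The deeper astrocyte libraries thus lay below every neuronal library also in raw reads, and the levels were 86.0 ± 5.87 against 8.52 ± 2.30 CPM (SD, n = 3 each), a log2 fold change of 3.32 ± 0.31 (SE; edgeR adjusted p = 6.84e-18). *Gad1*, which makes the transmitter GABA, had 27, 14 and 11 against 13, 7 and 10 reads, or 23.5 ± 10.1 against 3.65 ± 1.19 CPM, and rose by 2.68 ± 0.42 (edgeR adjusted p = 6.41e-08). *Aqp4*, the water channel of astrocyte endfeet, had no read in the neuronal libraries and 84, 150 and 87 in the astrocyte libraries, which puts it at least 28.3-fold higher there, against a floor of 3 reads over the 3 neuronal libraries. *Atxn2*, the gene targeted in the mutant littermates, had 3, 10 and 4 reads against 32, 34 and 33, with overlapping levels and a log2 fold change of -0.63 ± 0.45 (edgeR adjusted p = 0.361).

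**Figure D1:**
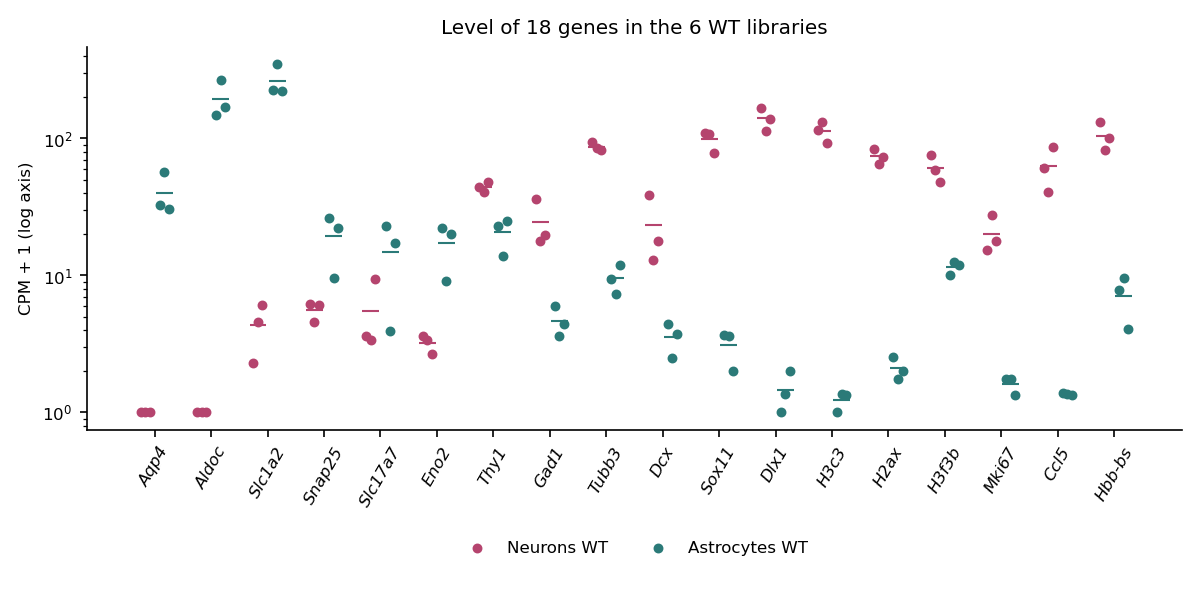
CPM + 1 on a log axis of 18 genes in each WT library, with 3 neuronal (magenta) and 3 astrocyte points (green) per gene and a bar at their mean. *Aqp4* and *Aldoc* lie at 0 reads in the neuronal libraries, *Snap25*, *Slc17a7* and *Eno2* are lower on average in neurons, and genes from *Thy1* to *Hbb-bs* are higher there.

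Genes of astrocyte identity were almost uniformly higher in the astrocyte fraction. Of 26 such genes tested, 25 were called higher in astrocytes and 0 in neurons, with a median log2 fold change of -5.85, or -5.33 with the 7 genes that had no neuronal read set to their lower bound. Of these genes 24 passed the filter through the astrocyte libraries alone. *Aldoc*, the brain isoform of aldolase on chromosome 11 (78213619 to 78218889), had 0 reads in the neuronal libraries and 391, 719 and 494 in the astrocyte libraries, at least 142-fold more. The GABA transporter gene *Slc6a11* had 0 against 377, 512 and 399 reads and was at least 114-fold higher in astrocytes, the receptor gene *Gpr37l1* at least 88.2-fold and the serine protease gene *Htra1* at least 70.1-fold. No neuronal library approached the astrocyte level of any of them. *Slc1a2*, the main glutamate transporter of the forebrain, had 1, 3 and 3 reads against 587, 936 and 645, a log2 fold change of -6.32 ± 0.43 (edgeR adjusted p = 1.72e-28). *Atp1b2*, whose product is the ACSA-2 antigen used for the capture, had 2, 2 and 1 against 335, 525 and 423 reads (-6.05 ± 0.45), so the sorting antigen itself is no finding. *Gfap*, named after its values were seen, had 1 read in the neuronal libraries together and 20, 47 and 22 in the astrocyte libraries, a ratio of 23.6 with a counting interval of 4.12 to 941. The proteoglycan gene *Bcan* was 86.0-fold higher in astrocytes (counting interval 29.4 to 418, with 3 neuronal reads), and the lipid phosphatase gene *Plpp3* differed by -5.47 ± 0.45. The exception was *Ttyh1*, at 10849 ± 2766 against 9163 ± 2171 CPM. Only 0.455% of its reads lay on protein-coding transcripts, since a retained-intron transcript among the 10 most abundant ones held nearly all. Without those 10 transcripts its log2 fold change was -4.58 (edgeR adjusted p = 7.97e-16).

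The secreted and metal-binding proteins of astrocytes were 15 of 15 higher in the astrocyte fraction, with a median of -4.28. *Apoe*, which carries lipids between glia and neurons, had 12, 30 and 11 neuronal against 1010, 1733 and 1158 astrocyte reads (-4.31 ± 0.33, edgeR adjusted p = 5.18e-24). The chaperone gene *Clu* differed by -4.28 ± 0.38. The protease inhibitor gene *Cst3* had 22, 24 and 13 reads against 620, 1051 and 710, a smaller difference of -3.43 ± 0.32. In all 15 genes no neuronal library reached any astrocyte library, which held for 25.4% of all genes tested. Of the 15, 9 had passed the filter through the astrocyte libraries alone.

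Of the genes that handle glutamate, glutamine and potassium, 15 of 20 were higher in astrocytes and 0 in neurons (median -3.04). *Slc1a3*, the second glial glutamate transporter, differed by -4.86 ± 0.43, and *Gja1*, the gap junction protein that couples astrocytes, by -5.58 ± 0.46. *Glul*, which makes glutamine, differed by -4.33 ± 0.40. The chloride importer gene *Slc12a2* and the neuronal chloride exporter gene *Slc12a5* were both called higher in astrocytes, by -1.29 ± 0.48 and -2.72 ± 0.60. *Slc12a2* rests on few reads, 2, 4 and 6 against 33, 40 and 40, and lost its call when any library except neuronal replicate 3 was left out.

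Of 24 genes of energy metabolism, 9 were higher in astrocytes and 0 in neurons, with a median of -1.81, but DESeq2 called 5 of 24, and 5 of 9 were called in thinned libraries. The member *Ldhb* (-1.37 ± 0.43) was called higher in astrocytes, as were *Aldoa* (-1.88 ± 0.36) and *Eno1* (-1.94 ± 0.38), which are not on this list. *Ldha* stayed at -1.15 ± 0.66 with an edgeR adjusted p of 0.234. *Eno2*, the neuronal enolase, had 2, 2 and 1 reads in the neuronal and 56, 22 and 56 in the astrocyte libraries, a difference of -2.79 ± 0.58 (edgeR adjusted p = 7.12e-05) without overlap. Of 21 genes for cholesterol biosynthesis, 7 were higher in astrocytes and 0 in neurons (median -1.14). DESeq2 called 4 of 21, and 4 of 12 were called with a mean of at least 10 reads and 3 of 13 in thinned libraries. All 13 mitochondrially encoded mRNAs had negative fold changes and 10 were called higher in astrocytes (median -1.40), among them *mt-Nd4* (-1.56 ± 0.30), *mt-Cytb* (-1.40 ± 0.30) and *mt-Co3* (-2.08 ± 0.33). *mt-Co1* had 40, 116 and 38 against 365, 478 and 352 reads, and neuronal replicate 2 overlapped with the astrocyte libraries. The count was 13 without that library, 6 without neuronal replicate 1 and 7 without astrocyte replicate 2. Among 26 transcription factors of glia, 14 were higher in astrocytes, such as *Sox9* (-2.34 ± 0.45) and *Notch1* (-1.42 ± 0.37), and the count was 8 of 16 with a mean of at least 10 reads, 7 of 16 in thinned libraries and 5 of 16 in thinned libraries with a replicate block. The member called in the other direction was *Nfib*, higher in neurons by 1.57 ± 0.32, while *Nfia* had a value of 0.53 ± 0.29 and no call.

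**Figure D2:**
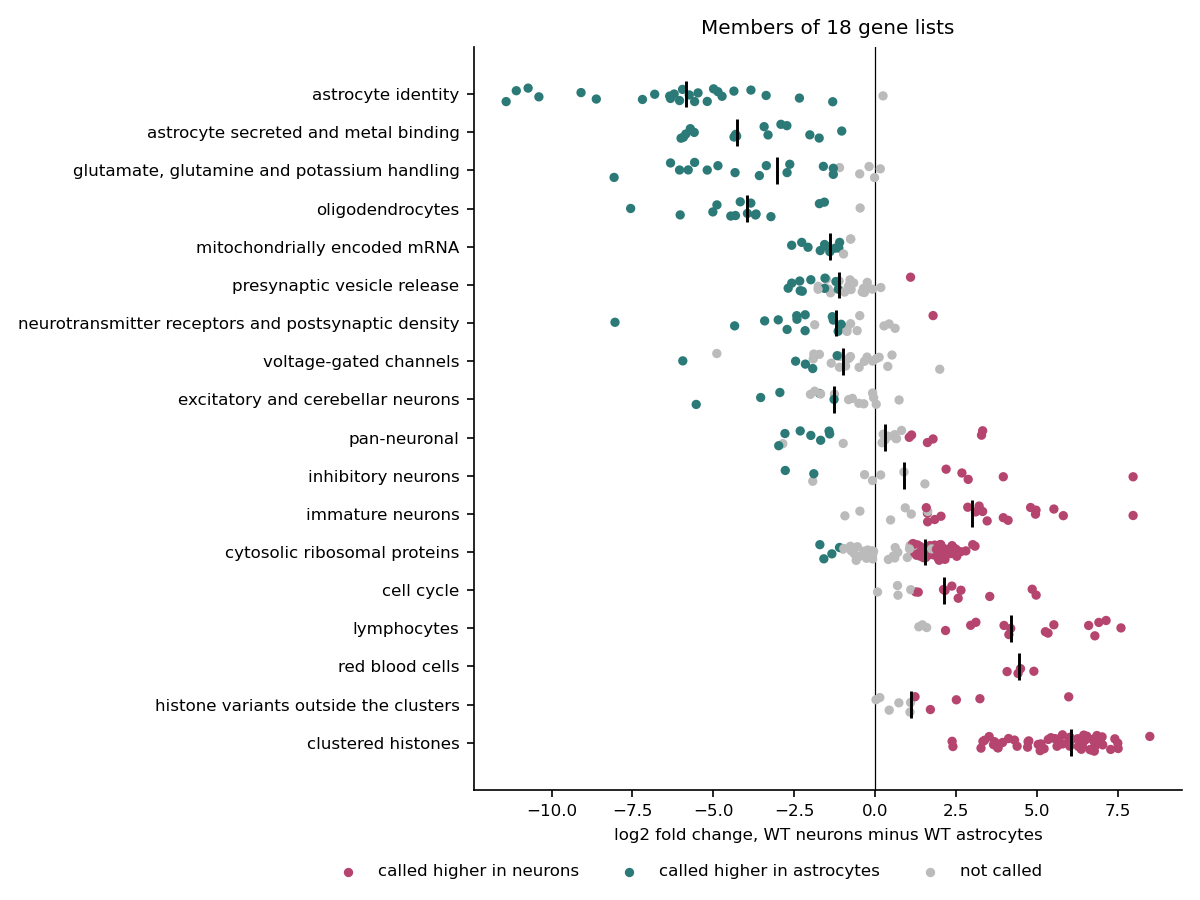
Log2 fold change (neurons minus astrocytes) of each tested member of 18 gene lists, coloured by its call, with a black bar at the median of each list. Lists of astrocytes and oligodendrocytes lie left of 0, those of synapses and channels mostly left of 0, and those of immature neurons, cell cycle, lymphocytes, red blood cells and histones right of 0.

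Genes of mature neurons were called in both directions. Of 23 pan-neuronal genes tested, 6 were higher in neurons and 7 in astrocytes, where 7.03% and 12.3% of all genes were called. The median log2 fold change was 0.30, above the -0.31 of all genes. Leaving out each library in turn gave 2 to 6 genes higher in neurons, the lowest without neuronal replicate 1, and 5 to 7 higher in astrocytes, and in thinned libraries 3 of 18 were higher in neurons. The members higher in neurons besides *Tubb3* included *Elavl4*, an RNA-binding protein of neurons (7, 7 and 3 against 4, 0 and 2 reads, 3.29 ± 0.75), the microtubule regulator genes *Stmn3* (1.79 ± 0.52) and *Stmn2* (1.61 ± 0.45), the surface glycoprotein gene *Thy1* (1.13 ± 0.31) and *Rtn1* (1.05 ± 0.35). *Stmn2* had 20, 11 and 3 against 18, 7 and 16 reads, with overlapping levels, and without neuronal replicate 1 it was at 0.90 (edgeR adjusted p = 0.300). *Stmn4* was lower in neurons by -1.41 ± 0.35. *Snap25*, a core protein of vesicle fusion named after its values were seen, had 4, 3 and 3 neuronal against 67, 23 and 62 astrocyte reads (-1.99 ± 0.49, edgeR adjusted p = 0.000983).

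Genes of presynaptic release were 10 of 30 higher in astrocytes and 1 in neurons, with a median of -1.13, and 28 of the 30 had a negative fold change, while 19 passed the filter through the astrocyte libraries alone. *Sv2a*, a vesicle glycoprotein gene, had 7, 1 and 1 against 55, 77 and 91 reads (-2.69 ± 0.47). *Bsn*, a scaffold of the active zone, had 7, 7 and 10 against 95, 23 and 96 reads (-1.21 ± 0.40, edgeR adjusted p = 0.0179), with overlap at astrocyte replicate 2. *Syp*, the vesicle protein synaptophysin, was at -0.66 ± 0.30 without a call. The one member called higher in neurons, *Rph3a*, had 7, 38 and 6 against 27, 16 and 45 reads and was at -0.21 without neuronal replicate 2. Of 24 receptor and postsynaptic genes, 16 passed the filter through the astrocyte libraries alone. Of the 24, 13 were higher in astrocytes and 1 in neurons (median -1.22), against 12.3% and 7.03% of all genes. The NMDA receptor subunit gene *Grin1* (-1.14 ± 0.34) and the scaffold gene *Shank1* (-1.05 ± 0.40) were among the former. *Homer1*, the latter, had 16, 44 and 5 against 29, 14 and 25 reads and without neuronal replicate 2 was at 0.81 (edgeR adjusted p = 0.229).

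Of 24 voltage-gated channel genes 5 were higher in astrocytes and 0 in neurons, with the calcium channel gene *Cacna1a* at -1.93 ± 0.46. Through the astrocyte libraries alone 17 of the 24 had passed the filter. Of 17 genes for excitatory and cerebellar neurons, 5 were higher in astrocytes and 0 in neurons, and 13 had passed through the astrocyte libraries alone. Among all genes 12.3% were called higher in astrocytes. The vesicular glutamate transporter gene *Slc17a7* had 2, 2 and 5 against 58, 8 and 48 reads (-1.71 ± 0.55, edgeR adjusted p = 0.0145) with overlap. *Itpr1*, abundant in Purkinje cells, differed by -1.27 ± 0.41. These counts depended on single libraries and on the tool. DESeq2 called 5 presynaptic, 8 receptor and postsynaptic, 2 channel and 1 excitatory and cerebellar genes higher in astrocytes. In thinned libraries these were 6 of 24, 10 of 19, 1 of 10 and 1 of 9, and with a mean of at least 10 reads 0 of 7 excitatory and cerebellar genes. Leaving out each library in turn gave 6 to 15 presynaptic genes, 9 to 13 receptor and postsynaptic genes, 2 to 8 channel genes and 1 to 4 excitatory and cerebellar genes higher in astrocytes. For presynaptic genes the value of 6 came without astrocyte replicate 1 or 3, and the value of 15 without astrocyte replicate 2, the library in which the summed level of the presynaptic list was 362 CPM against 527 and 539 CPM in the other astrocyte libraries. In the neuronal libraries that sum was 227 to 259 CPM. Astrocyte replicate 2 was also the lowest astrocyte library in the sums of receptor and postsynaptic (262 CPM), channel (118 CPM) and excitatory and cerebellar genes (80.7 CPM). For the last list this overlapped with the 50.8 to 88.0 CPM of the neuronal libraries.

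Of 26 cytoskeleton and transport genes, 5 were higher in neurons and 4 in astrocytes, the latter a share near the 12.3% of all genes. *Map1a* (-2.43 ± 0.38), *Mapt* (-1.13 ± 0.33) and *Ank2* (-1.64 ± 0.32), which build and stabilise the axon, were among the latter. *Kif5a*, a motor of axonal transport, was called higher in neurons (1.78 ± 0.35) on 5, 144 and 9 against 53, 51 and 57 reads. Without neuronal replicate 2 its value turned to -0.97 (edgeR adjusted p = 0.134). *Kif1a* had 22, 155 and 6 against 173, 184 and 197 reads and moved from 0.20 to -1.79, and *Ank3* had 4, 209 and 13 against 133, 138 and 135 reads and moved from 0.95 to -2.01, both then called higher in astrocytes. *Akap5*, an anchoring protein of the postsynapse, had 1566, 41720 and 1257 against 7893, 13393 and 8293 reads and a called difference of 2.33 ± 0.33, which was -0.85 (edgeR adjusted p = 0.000212) without that library. Without it the cytoskeletal list had 3 genes higher in neurons and 8 in astrocytes, whereas without neuronal replicate 3 it had 8 higher in neurons. DESeq2 called 3 higher in neurons and 2 in astrocytes, and the replicate block 3 and 4. Of the 32 genes at which neuronal replicate 2 stood apart, 14 were called higher in neurons.

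**Figure D3:**
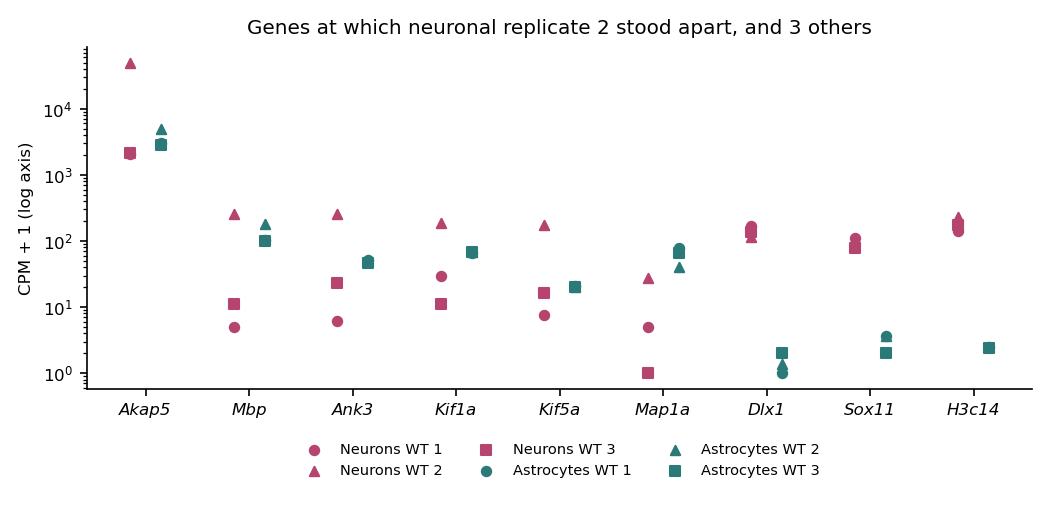
CPM + 1 on a log axis of 6 genes at which neuronal replicate 2 (magenta triangles) stood apart and of *Dlx1*, *Sox11* and *H3c14*, with 1 symbol per WT library. For *Akap5*, *Mbp*, *Ank3*, *Kif1a* and *Kif5a* that library lies above all others, while for the last 3 genes the neuronal libraries lie together.

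Genes of immature neurons were mostly higher in the neuronal fraction. Of 24 tested, 18 were higher in neurons and 0 in astrocytes, with a median of 2.98, where 5 had passed the filter through the neuronal libraries alone, and leaving out any single library gave 16 to 19. Their summed level was 1138 to 1299 CPM in the neuronal and 205 to 229 CPM in the astrocyte libraries. *Dlx1*, a homeobox factor of newborn inhibitory neurons on chromosome 2 (71358457 to 71364325), had 128, 94 and 81 reads against 0, 1 and 3, a log2 fold change of 7.97 ± 0.46 (edgeR adjusted p = 3.47e-34). *Sox11* on chromosome 12 (27384263 to 27392573) and *Sox4*, the SoxC factors that drive neuronal differentiation, had 83, 89 and 46 against 7, 7 and 3 reads (5.52 ± 0.38) and 109, 83 and 67 against 13, 6 and 12 reads (4.96 ± 0.35). The cyclin gene *Ccnd2*, used by neuronal precursors, was at 153 ± 0.954 against 4.80 ± 1.90 CPM (4.97 ± 0.35). *Tmsb10*, an actin-binding peptide gene, was at 122 ± 0.480 against 7.04 ± 3.21 CPM (4.11 ± 0.33). None of these 5 overlapped between fractions. *Dcx*, doublecortin, and *Igfbpl1*, both named after their values were seen, had 29, 10 and 10 against 9, 4 and 8 reads (3.10 ± 0.45) and 30, 19 and 19 against 2, 1 and 1 reads (5.81 ± 0.54). *Nnat* had a value of 0.48 ± 0.29 and no call.

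Of 25 inhibitory neuron genes 13 passed the filter, and 5 were higher in neurons and 2 in astrocytes. Besides *Dlx1* and *Gad1* these included the factor gene *Meis2* (34, 33 and 22 against 26, 17 and 30 reads, 2.19 ± 0.33) and *Dlx2*, singled out after its values were seen. *Ppp1r1b*, a signalling protein gene of striatal neurons, differed by -1.90 ± 0.53. By the smallest p of all genes, *Zic5* on chromosome 14 (122694190 to 122703089) led with 2701, 4129 and 2449 against 250, 249 and 240 reads, a log2 fold change of 5.55 ± 0.28 (edgeR adjusted p = 5.35e-40). *Zic5* encodes a zinc finger factor of neural development.

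Clustered histone genes had higher levels in the neuronal fraction. Replication-dependent histone genes lie in clusters, are transcribed while DNA is copied, and give mRNAs that end in a conserved stem-loop instead of a poly(A) tail. Such mRNAs can enter these libraries through the added tail, which was not tested. Of 67 clustered histone genes 64 passed the filter, and 64 were called higher in neurons, with a median log2 fold change of 6.04 and a range of 2.38 to 8.49. This list was drawn up after its values were seen, and 37 of the 64 passed the filter through the neuronal libraries alone. All 64 were without overlap, and the summed level was 5975 to 7192 CPM in the neuronal against 181 to 224 CPM in the astrocyte libraries. Copies within a family are nearly identical, so that reads may be split between them and single genes are less certain than the sum.

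*H3c3* on chromosome 13 (23928956 to 23929585) had 87, 109 and 54 reads against 0, 1 and 1, a ratio of 472 with a counting interval of 129 to 3920. *H3c14* had 109, 190 and 104 against 4, 4 and 4 reads (6.90 ± 0.40), *H3c6* 127, 144 and 92 against 2, 3 and 5 (7.01 ± 0.41) and *H2bc7* 156, 163 and 114 against 5, 8 and 1 (6.80 ± 0.40). More astrocyte reads than in these genes were found for *H4c8*, with 188, 247 and 160 against 38, 47 and 43 reads (4.12 ± 0.32). *H4c4* likewise had 129, 164 and 88 against 47, 57 and 42 (3.27 ± 0.31). The smallest differences in the list were those of *H2ac21* (2.38 ± 0.75) and *H4c16*, both singled out after their values were seen.

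The 300 genome bases after the stop codon of each gene's longest coding transcript were searched in GRCm39 for the stem-loop. The letters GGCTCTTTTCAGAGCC, the commonest match among all genes, stood on the gene's strand in 36 of the 64 tested clustered histone genes. A wider form, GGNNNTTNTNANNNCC with its outer 6 bases on each side able to pair fully, stood in 59 of them (92.2%). Over all 21575 protein-coding genes it stood in 69 (0.320%), and the exact letters in 40 (0.185%). On the opposite strand the wider form was found in 2 genes of all, both of them histones of the list. A match is a description of the letters and not a test of the 3′ end of the RNA. The stem-loop is shown for genes of different families, and for *H2ax*, the 1 of 11 tested variant genes outside the clusters that holds it. Capitals mark the 16 bases of the element, 5′ to 3′ on the gene's strand, with 5 flanking bases on each side.
H3c3, chr13:23929025-23929050, minus strand: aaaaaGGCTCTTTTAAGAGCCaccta
H3c14, chr3:96154638-96154663, plus strand: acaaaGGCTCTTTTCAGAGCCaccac
H2bc7, chr13:23757934-23757959, minus strand: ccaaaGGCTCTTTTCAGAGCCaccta
H4c8, chr13:23715623-23715648, plus strand: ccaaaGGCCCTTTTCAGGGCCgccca
H4c16, chr6:136780991-136781016, minus strand: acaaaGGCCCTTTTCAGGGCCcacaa
H2ax, chr9:44246532-44246557, plus strand: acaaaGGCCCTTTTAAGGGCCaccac

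Of 34 histone variant genes outside the clusters 11 were tested, and 5 were called higher in neurons and 0 in astrocytes, with a median of 1.09. *H2ax*, which marks DNA breaks and was the 1 variant gene with the element, had 64, 53 and 43 against 4, 2 and 3 reads and the largest difference of them, 5.98 ± 0.42 (edgeR adjusted p = 8.41e-28). The linker histone genes *H1f10* and *H1f0*, without the element, had 30, 34 and 18 against 9, 13 and 10 reads (3.24 ± 0.38) and 27, 29 and 36 against 37, 39 and 32 reads (1.71 ± 0.32). The replacement histone genes *H3f3b* and *H3f3a* differed by 2.51 ± 0.31 and 1.23 ± 0.45, the latter with overlap. The difference between genes with and without the element was not tested.

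**Figure D4:**
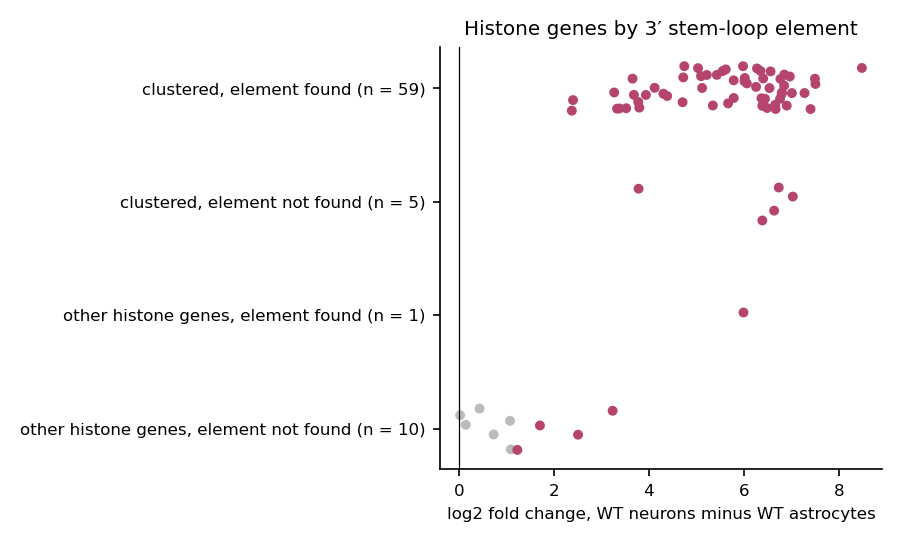
Log2 fold change (neurons minus astrocytes) of 75 histone genes, split by cluster membership and by whether the stem-loop form was found after the stop codon, with magenta for genes called higher in neurons and grey for genes without a call. Clustered genes lie between 2.38 and 8.49, and among the other genes *H2ax* lies alone at 5.98.

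Of 32 cell cycle genes, on a list also drawn up after values were seen, only 14 passed the filter, 3 of them through the neuronal libraries alone, so that the 10 called higher in neurons are a description. With a mean of at least 10 reads 3 of 5 were called. *Mki67*, a marker of dividing cells, had 11, 22 and 10 against 2, 2 and 1 reads (4.85 ± 0.58, edgeR adjusted p = 2.69e-12). The helicase subunit gene *Mcm2* (14, 11 and 9 against 6, 5 and 9 reads) differed by 2.65 ± 0.49 and the PCNA-binding factor gene *Pclaf* by 2.37 ± 0.42. *Slbp*, whose product binds the histone stem-loop, had 13, 17 and 14 against 22, 20 and 24 reads, a difference of 1.33 ± 0.38 (edgeR adjusted p = 0.00592). *Rrm1* differed by 1.25 ± 0.31, but 4.58% of its reads lay on protein-coding transcripts. *Top2a* was at 0.71 ± 0.30 without a call, with 2.60% of reads on such transcripts.

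The cytosolic ribosomal proteins were 58 of 89 higher in neurons and 4 in astrocytes, with a median of 1.55. Their summed level was 16660 to 19570 CPM in neuronal and 18540 to 22200 CPM in astrocyte libraries, with overlap. The 4 members higher in astrocytes were *Rpl5* (-1.71 ± 0.28), *Rpl13* (-1.59 ± 0.27), *Rpl30* (-1.34 ± 0.28) and *Rps12* (-1.10 ± 0.24). At most 2.30% of the reads of each lay on protein-coding transcripts, and most of the rest on transcripts annotated as retained introns. Counted on protein-coding transcripts alone, an alternative chosen after seeing the data, the 4 had values of 1.03, 2.32, 1.61 and 2.35, and 66 of 79 ribosomal proteins were higher in neurons and 0 in astrocytes. *Rpl32*, with all its reads on protein-coding transcripts, had 1198, 1012 and 950 against 4103, 4646 and 3972 reads (-0.08 ± 0.24). Of 77 nuclear genes for the respiratory chain and ATP synthase 1 was called in each direction (median -0.07). Of 39 proteasome genes 3 were higher in neurons, a share near the 7.03% of all genes, and 1 in astrocytes. The 1 higher in astrocytes, *Psmd9*, had 0.5% of its reads on protein-coding transcripts. Counted on these alone, 0 of 31 proteasome genes were higher in astrocytes.

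Transcripts of other cell types differed between the fractions as well, and their part in the results above was not tested. Oligodendrocyte genes were 14 of 15 higher in astrocytes (median -3.95). The myelin genes *Mag* (-3.84 ± 0.40) and *Cnp* (-3.68 ± 0.37) and the transferrin gene *Trf* (-4.46 ± 0.39) were among them. *Mbp* had 3, 213 and 6 against 268, 492 and 287 reads and no call (-0.46 ± 0.37), and without neuronal replicate 2 it was at -4.30 (edgeR adjusted p = 2.64e-20). The summed level of this list was 40.4, 338 and 40.6 CPM in the neuronal libraries and 685 to 1106 CPM in the astrocyte libraries. *Mobp* had 6, 22 and 0 against 72, 139 and 94 reads (-1.57 ± 0.38), and without neuronal replicate 2 it was at -3.12 (edgeR adjusted p = 1.43e-07).

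Of 6 red blood cell genes 4 passed the filter, and these 4 were higher in neurons, although red cells had been lysed. The haemoglobin gene *Hbb-bs* had 100, 68 and 59 against 18, 23 and 9 reads (4.08 ± 0.33), *Hbb-bt* 60, 36 and 76 against 9, 8 and 5 (4.90 ± 0.38), *Hba-a1* 74, 53 and 108 against 11, 15 and 15 (4.49 ± 0.35) and *Hba-a2* 92, 93 and 137 against 12, 27 and 20 (4.41 ± 0.34). The α-globin copies are nearly identical and share reads. Of 32 lymphocyte genes, on a list drawn up after values were seen, only 17 passed the filter, 14 of them through the neuronal libraries alone, so that the 14 called higher in neurons are a description. The list had summed levels of 238 to 291 against 13.3 to 22.1 CPM. The chemokine gene *Ccl5* of T and NK cells had 46, 33 and 51 against 1, 1 and 1 reads, a ratio of 164 with a counting interval of 54.8 to 804. *Cd52* had 19, 36 and 21 against 1, 0 and 1 reads, and the T cell receptor subunit genes *Cd3d* (9, 14 and 8 against 4, 3 and 6) and *Cd3e* (10, 4 and 7 against 2, 1 and 1) differed by 3.11 ± 0.55 and 4.13 ± 0.75. *Igkc*, the antibody light chain of B cells, had 11, 9 and 10 reads against 0, at least 37.8-fold more. Without neuronal replicate 2 fewer of these genes passed the filter and 8 of 11 were called, and without neuronal replicate 3 it was 9 of 12.

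Of 15 microglia genes only 3 passed the filter and none was called (with all 18 libraries in one fit, 1 was higher in astrocytes), at summed levels of 10.4 to 15.2 and 12.6 to 17.1 CPM. Of the list 9 genes had no neuronal read, *Aif1* and *P2ry12*, singled out after their values were seen, had none in either fraction, and *Cx3cr1* had 6, 6 and 3 against 13, 9 and 19. Endothelial genes were 3 of 10 higher in astrocytes, with the tight junction gene *Cldn5* at 1, 0 and 0 against 21, 24 and 35 reads, and 3 of 6 pericyte genes were higher there. Of 4 oligodendrocyte precursor genes 1 was higher in astrocytes. Of 12 ependymal and choroid plexus genes 5 were higher in astrocytes and 1, *Ttr*, in neurons. *Ttr*, the thyroxine carrier made by the choroid plexus, had 145, 389 and 110 against 245, 226 and 268 reads (1.66 ± 0.29), and without neuronal replicate 2 its value of 1.00 fell just below the threshold for a call. Of 21 immediate-early and stress genes 6 were higher in neurons and 1 in astrocytes. *Egr1* had 53, 84 and 45 against 31, 42 and 37 reads (2.62 ± 0.30) and *Jun* was at 1.11 ± 0.38, whereas the dendritic gene *Arc* had 3, 1 and 1 against 26, 24 and 24 reads (-1.94 ± 0.64). Leaving out each library in turn gave 1 to 6 genes higher in neurons, with 1 without neuronal replicate 3 and 3 without astrocyte replicate 1.

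The contrast was repeated in the fractions of the KIN mice, whose 6 libraries share no sample with the WT libraries and were deeper for neurons, with 1473194 to 2017932 reads. Of 10672 genes tested there, 1595 (14.9%) were higher in neurons and 1766 (16.5%) in astrocytes. Of the 763 genes higher in WT neurons, 598 were called in the same direction in KIN and 1 in the opposite one, which is 78.4% of the WT list and 37.5% of the KIN list. Of the 1336 genes higher in WT astrocytes, 867 were called alike and 4 oppositely, 64.9% of the WT and 49.1% of the KIN list. Clustered histones were 64 of 64 and immature neuron genes 23 of 25 higher in KIN neurons, and astrocyte identity genes 25 of 26 higher in KIN astrocytes. *Dlx1* had 227, 149 and 252 reads in KIN neurons against 3, 0 and 1 in KIN astrocytes, and *Mki67* 36, 27 and 34 against 0.

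For the neuronal lists, the difference between WT and KIN was not tested as a whole. In KIN, presynaptic genes were 4 of 26 higher in neurons and 4 in astrocytes, with a median of -0.40, shares near those of all KIN genes, and of 22 receptor and postsynaptic genes 0 were higher in neurons and 5 in astrocytes, with a median of -0.04. Pan-neuronal genes were 10 of 20 higher in KIN neurons and 2 in astrocytes (median 1.16), cytoskeletal genes 8 of 24 and 4 (median 0.62, the latter count also near the share of all KIN genes), and channel genes 7 of 20 and 3 (median 0.30). *Snap25* had 0, 2 and 10 against 9, 7 and 7 reads in KIN, a log2 fold change of 0.02. The test of the difference itself, KIN minus WT, gave 2.08 ± 0.81 for *Snap25* (edgeR adjusted p = 0.217) and 3.07 ± 0.81 for *Eno2* (edgeR adjusted p = 0.0290). Over 12358 genes, 144 (1.17%) passed this test, 113 with a higher and 31 with a lower value in KIN. That count ran from 56 without astrocyte replicate 3 of WT to 276 without astrocyte replicate 2 of WT.

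**Figure D5:**
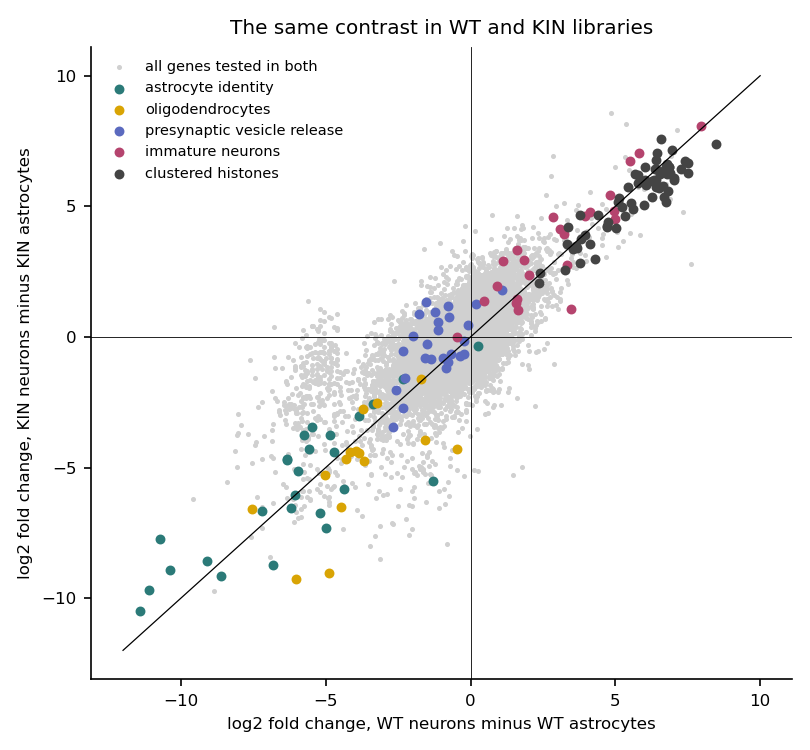
Log2 fold change of neurons minus astrocytes in WT (horizontal) and in KIN libraries (vertical) for all genes tested in both (grey) and the members of 5 lists (colours), with the line of equal values. Histone, immature neuron and most astrocyte genes lie near the line, several oligodendrocyte genes lie below it, and many presynaptic genes lie above it.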

How the data were processed

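The authors sequenced total RNA with unique molecular identifiers and mapped the reads to mm39 in steps with Bowtie2 2.4.4. Per the labels and methods they counted with HTSeq 2.0.2, without regard to strand, so overlapping antisense genes cannot be told apart. The deposited values used here are raw counts per transcript, not normalized. The table holds 116873 transcripts under 35823 symbols, and 36 other per-sample columns (normalized values) were not used. Transcript types and gene positions came from the GENCODE annotation of GRCm39, which is mm39 and held 99.4% of the transcripts. The 137 transcripts without a symbol were kept under their identifier and hold at most 0.0305% of a library.

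Counts were summed by symbol. Groups came from the sample labels, and only the 6 WT libraries entered the comparison. Library sizes were scaled by TMM over the genes kept, and edgeR 4.0.16 was fitted with its quasi-likelihood test and a prior count of 0.125. The standard error is the size of the fold change over the square root of F. The interaction was fitted on 12 libraries. Chi-square distances per degree of freedom between replicates were 1.91 to 18.5, so no library was a copy of another. Per the methods the cell types were isolated one after another from the same brain, so neuronal and astrocyte libraries share animals, but the sources used here do not say which replicate numbers share a mouse. The main test treats the 6 libraries as independent, and its *p* values measure the spread between them. Floors (3 reads over the 3 libraries of a group) and exact 95% counting intervals cover counting error only. Gene lists and members were chosen with earlier results of these data known. The genes named are, in each direction, the 12 with the smallest *p* among called genes without overlap and with at least 10 reads in each library of the higher group, up to 6 members of highest level in each list with members against its majority, the markers, the isoform pairs and the 10 genes with most counts. S6 kinase genes were taken out of the ribosomal protein list by name. Lists of clustered and other histones, cell cycle and lymphocyte genes were added after values were seen. The tests were checked on simulated data.

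The alternatives were DESeq2 1.42.0, DESeq2 size factors, TMMwsp, the 10 most abundant transcripts left out, other filters, thinning without those transcripts, all 18 libraries in one fit, the replicate number as a block, the adjusted *p* alone and each library left out. Protein-coding transcripts alone were added after seeing the data. Results on some genes that the rule names are not reported here.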

Additional observations from a re-analysis of the deposited data

Results flagged for a closer look

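The difference between fractions was compared between genotypes by an interaction term (edgeR quasi-likelihood test), and 12 of the genes named by rule passed it, each given as the log2 fold change of neurons minus astrocytes in KIN minus that in WT. Values below 0 were found for *Mbp* (-3.83), *Ank3* (-3.04), *Akap5* (-2.86), *Mobp* (-2.33) and *Kif1a* (-2.04). All 5 lost the call without WT neuronal replicate 2, with values of 0.017, -0.068, 0.343, -0.800 and -0.053, in that order for *Mbp*, *Ank3*, *Akap5*, *Mobp* and *Kif1a*. With any other of the 12 libraries left out, *Mbp*, *Ank3*, *Akap5* and *Kif1a* kept the call.

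Values above 0 were found for *Eno2* (3.07), *Cacna1e* (2.61), *Bsn* (2.24), *Shank1* (1.98) and *Thy1* (1.86), which neurons express, and for *H1f10* (1.94) and *Cst3* (1.43). For each of these genes every KIN astrocyte library lay below every WT astrocyte library in CPM. *Eno2* was at 8.14 to 21.3 CPM in WT astrocytes and 2.67 to 3.37 CPM in KIN astrocytes. *Cacna1e* was there at 5.92 to 23.2 and 2.02 to 3.04 CPM. Every KIN neuronal library lay above every WT one for *Eno2* and *H1f10* and below for *Bsn*, and the other genes overlapped. Which fraction moved was not tested. *Cacna1e*, which encodes a calcium channel, kept its call with each of the 12 libraries left out in turn, at 2.20 to 3.00, and *Thy1* with 9 of them. The others kept it with 6 (*Eno2*), 5 (*Bsn*), 3 (*Shank1*), 2 (*Cst3*) and 1 (*H1f10*), always with a value of the same sign.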

How the results depend on the processing

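Of the genes named, 78 kept direction and side of the threshold under all alternatives that could be fitted for them, and 28 of 2056 values changed sign. The count of genes higher in neurons (763) was 561 to 722 with each library left out (lowest without neuronal replicate 1, highest without astrocyte replicate 2) and 452 with the replicate block in thinned libraries. The count higher in astrocytes (1336) was 1088 to 1265 with each library left out, 774 with DESeq2, 805 with a mean of at least 10 reads, 646 in thinned libraries and 555 with the replicate block in thinned libraries. Fewer genes were tested under that filter and after thinning. The replicate block alone gave 604 and 1061. Deviations of libraries with the same number correlated at 0.218, 0.201 and 0.0204 over 407 genes, and those with different numbers at -0.25 to 0.147. These values do not settle which libraries share a mouse, and the main test did not take the numbers as pairs. The interaction count (144) was 88 with DESeq2 size factors and 56 to 276 with each library left out. The median over shared genes moved by -0.241 without a filter and by 0.201 with the stricter one.

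Sign changes, with the cause not tested, were as follows. In thinned libraries *Ttyh1* was at -4.43 and *Kif1a* at -0.030, and with the block added at -4.45 and -0.59. With the block alone *Kif1a* was at -0.50 and *Ank3* at -0.18. With the stricter filter *Rpl32* was at 0.13, and with no filter *Kif1a* was at -0.019 and *Creb5* at -0.14. Without the 10 most abundant transcripts *Ttyh1* was at -4.58 and *Creb5* at -1.88. On protein-coding transcripts *Ttyh1* was at -3.80, *Cacna1e* at 0.16, *Rpl13* at 2.32, *Rpl5* at 1.03, *Rpl30* at 1.61, *Rps12* at 2.35 and *Creb5* at -2.20. With each library left out, 6 genes turned without neuronal replicate 2: *Ank3* ran from -2.01 to 1.465, *Kif1a* from -1.79 to 0.642, *Kif5a* from -0.967 to 2.276, *Akap5* from -0.846 to 2.838, *Rph3a* from -0.214 to 1.485 and *Ttyh1* from -0.045 to 0.479. Without other libraries *Mbp* (-4.296 to 0.071), *Cacna1e* (-0.767 to 0.091) and *Rpl32* (-0.204 to 0.039) turned.

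Depth limits the neuronal side, where a gene with 0 reads in the 3 libraries can still be at the floor, and lists of low genes lose calls after thinning.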

Other observations

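*Zfp101* was at 596770 ± 67543 CPM in neurons and 204950 ± 38823 CPM in astrocytes and was called higher in neurons (1.54 ± 0.14, edgeR adjusted p = 2.13e-18). *Creb5* was at 229830 ± 17121 against 213100 ± 29790 CPM (0.11 ± 0.15), with 0.000931% of its reads on protein-coding transcripts. *Mettl26* (0.37 ± 0.17) and *Ncbp3* (0.65 ± 0.17) held 69785 ± 7969 and 49838 ± 6230 CPM in astrocytes and were not called.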
